A study of Mus musculus with 8 samples.

Results

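The BCL2 family genes described here are 10 rows of a table of transcript levels in mouse ventral prostate, chosen by gene name: Bcl2, Bcl2l1, Mcl1, Bax, Bak1, Bid, Bad, Bcl2l11, Bbc3 and Pmaip1. They are 10 of 36333 genes in the table, and 9 of them were among the 13080 genes with a level of 1 TPM (a length-corrected share of all transcripts in a library, on a scale with the same total in each) or more in 4 or more of the 8 samples. RNA was sequenced from the ventral prostates of 4 hSKP2-KI and 4 wild type (WT) male mice, all 12 months old, with 1 library per mouse. In hSKP2-KI mice the coding sequence of human SKP2, a substrate receptor of an SCF ubiquitin ligase, sits behind a P2A peptide in exon 1 of the mouse's own Pbsn gene, so that the probasin promoter, which is active in prostate epithelium, drives it. Pbsn is X-linked, and the knock-in males were bred from heterozygous females and WT FVB/N males. The study's methods name the FVB/N strain for these sires only. Several founder lines were made, and which of them gave the sequenced mice is not given in the sources used here.

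The BCL2 family decides whether the outer mitochondrial membrane is opened during intrinsic apoptosis. Bcl2, Bcl2l1 (BCL-XL) and Mcl1 keep the membrane closed by binding the effectors Bax and Bak1, which form the pores, and the BH3-only proteins Bid, Bad, Bcl2l11 (BIM), Bbc3 (PUMA) and Pmaip1 (NOXA) tip this balance towards death. In the prostate, BCL2 is known for its presence in basal epithelial cells and for its rise in tumors that survive androgen withdrawal. Many of these proteins are also set by phosphorylation and degradation, which transcript levels do not show.

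The library labels were checked first. The Skp2 row stood at 37.3 to 60.6 TPM in the hSKP2-KI samples and 1.05 to 2.27 TPM in WT, and whether reads of the human sequence were counted there is not stated. Pbsn, whose exon 1 carries the insertion, stood at 93.0 to 174 TPM in hSKP2-KI and at 3980 to 9232 TPM in WT. All 5 luminal epithelial markers, among them Epcam, Cdh1, Krt8 and Krt18, were detected in every sample, summing to 1730 to 2236 TPM. The secretory genes Sbp, Spink1 and Sbpl held 40.4% to 45.8% of all TPM in WT and 32.1% to 34.3% in hSKP2-KI, and TPM sums to the same total in every sample. The median difference of all tested genes was 0.23 on the log2 scale. Median-ratio scaling of the samples brought that median to -0.01. Of all tested genes 4272 were called higher and 161 lower in hSKP2-KI as deposited, against 904 and 556 after scaling, so each member is given on both scales, and "called" means a limma adjusted p under 0.05. Differences are in mean log2(TPM + 1), hSKP2-KI minus WT. This scale understates the change of low genes.

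Of the members tested, Bcl2 had the largest difference between hSKP2-KI and WT on both scales, and it was higher in hSKP2-KI. Of the 9 members tested, 3 were called higher (Bcl2, Bcl2l1 and Bak1) and 0 lower by limma on the deposited TPM, where 32.7% of all tested genes were called higher and 1.23% lower. At an unadjusted p under 0.05 the count was 5 of 9. The median difference of the 9 members was 0.24, beside 0.23 for all tested genes, and 5 of the 9 lay above that median. After median-ratio scaling 1 of 9 was called higher, which was Bcl2, and 0 lower, where 6.91% of all tested genes were called higher and 4.25% lower. At an unadjusted p under 0.05 the scaled count was 2 of 9, and the members' median was -0.03. Quantile normalization also called 1 member higher and TPM without the 20 most abundant genes 2, where 5.51% and 6.79% of all tested genes were called higher. Every hSKP2-KI sample lay above every WT sample for 3 of the 9 tested members as deposited, where 34% of tested genes did so. After scaling this held for 1 of the 9, where 10.3% of tested genes did so. The share of members called was therefore close to that of all genes, and the values below are about single members.

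**Figure D1:**
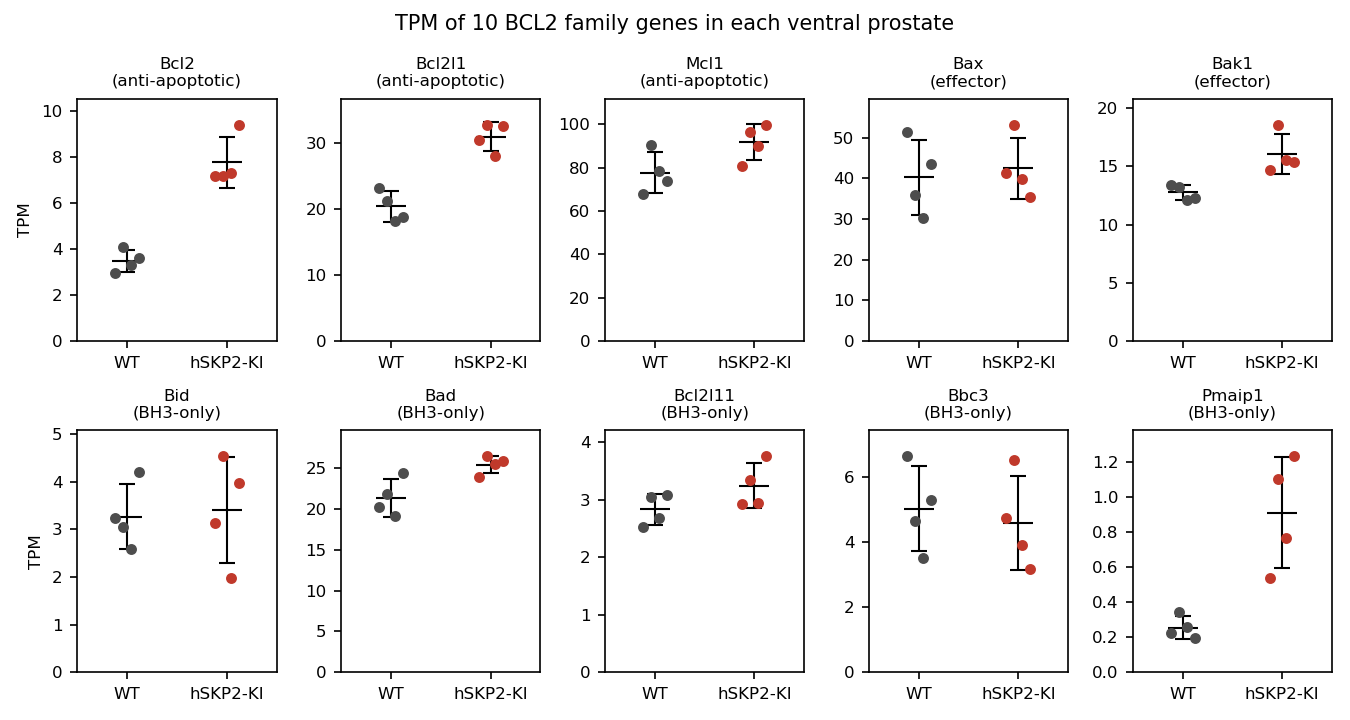
TPM of each of the 10 genes in the 4 WT (grey) and 4 hSKP2-KI (red) ventral prostates, with a separate vertical axis from 0 for each gene; points are mice, and lines and bars are the mean and SD. For Bcl2, Bcl2l1, Bak1 and Pmaip1 all 4 hSKP2-KI points sit above all 4 WT points, and for the other 6 genes the groups overlap.

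Bcl2, the founding anti-apoptotic member (Entrez 12043, chr1:106538176-106714290, GRCm38), stood at 7.18, 7.17, 7.28 and 9.40 TPM in hSKP2-KI replicates 1 to 4. In WT replicates 1 to 4 it stood at 2.96, 4.08, 3.31 and 3.59 TPM. The groups did not overlap: 3 of the 4 hSKP2-KI values lay between 7.17 and 7.28 TPM, and replicate 4 was the high one. The means were 7.76 ± 1.09 and 3.49 ± 0.474 TPM (SD, n = 4 each), a 2.22-fold ratio. The difference of 0.96 (SE 0.12) in log2(TPM + 1) had a limma adjusted p of 0.000967 and exceeded that of 97.2% of all tested genes. After median-ratio scaling the groups were still apart, at 6.47 to 8.37 in hSKP2-KI and 3.58 to 4.15 in WT. The scaled ratio was 1.85-fold and the scaled difference 0.74 (SE 0.10), with a limma adjusted p of 0.00303. Without any 1 of the 8 mice the difference stayed between 0.88 and 1.03 as deposited and between 0.66 and 0.77 after scaling, and it was called each time. Bcl2 was a low transcript in this tissue, with a mean TPM above that of 29.3% of tested genes.

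The 250 bases before an annotated transcript start are shown for Bcl2 and Bax. These are the member with the largest difference and its pore-forming partner that was not called. The windows are RefSeq sequence of GRCm38.p6, a C57BL/6J assembly, while the knock-in mice had FVB/N sires. Both lie on the minus strand, Bcl2 at chr1:106714291-106714540 and Bax at chr7:45466899-45467148, and are printed 5′ to 3′. The last bases of the Bax window lie inside the Bax gene span, which ends at 45466903. Capitals mark GGGCGG or CCGCCC, the core of the GC box and its reverse complement. Overlapping matches were allowed in the count, and none of those marked here overlap.
Bcl2: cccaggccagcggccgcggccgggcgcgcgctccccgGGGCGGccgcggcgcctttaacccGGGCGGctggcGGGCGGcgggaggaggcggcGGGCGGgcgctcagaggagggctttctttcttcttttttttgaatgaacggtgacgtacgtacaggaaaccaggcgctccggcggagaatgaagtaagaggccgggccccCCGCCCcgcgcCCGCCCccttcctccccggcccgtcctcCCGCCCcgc
Bax: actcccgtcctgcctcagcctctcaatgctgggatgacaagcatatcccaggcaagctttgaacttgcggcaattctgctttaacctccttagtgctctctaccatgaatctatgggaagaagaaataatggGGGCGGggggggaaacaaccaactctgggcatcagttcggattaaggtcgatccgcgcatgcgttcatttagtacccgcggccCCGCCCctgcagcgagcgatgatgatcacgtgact
The Bcl2 window held 7 matches and 36 CpG dinucleotides at 74.8% G and C, and the Bax window 2 matches and 14 CpG at 54.0%. Of 32851 such windows of 27025 genes, 32.7% held at least 1 match and 0.411% held as many as Bcl2, and the median window had 52.4% G and C. The G and C content of the Bcl2 window was above that of 95.8% of windows, and a GC-rich window holds these letters more often. The matches describe letters only, not binding.

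Bcl2l1 encodes BCL-XL in its long form and a pro-apoptotic protein in its short form, and a gene-level value does not separate them. It (Entrez 12048, chr2:152758732-152833803) stood at 30.4, 32.7, 28.0 and 32.6 TPM in hSKP2-KI replicates 1 to 4. The WT values were 23.2, 21.2, 18.2 and 18.8 TPM. All 4 hSKP2-KI values were above the highest WT value as deposited. The means were 30.9 ± 2.21 and 20.3 ± 2.30 TPM (SD, n = 4 each), a 1.52-fold ratio, and the difference of 0.58 (SE 0.10) had a limma adjusted p of 0.00275 and was called without any 1 mouse. After median-ratio scaling 3 of the 4 hSKP2-KI values lay above all WT values, and the ratio was 1.25-fold. The scaled difference of 0.32 (SE 0.11) then had a limma adjusted p of 0.0792. With 1 mouse left out it ranged from 0.27 to 0.43 and was called in 1 of 8 fits, the one without WT replicate 1 (0.43, limma adjusted p = 0.0163).

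Mcl1, whose protein is short-lived and turned over through the proteasome, was the most abundant member. It (Entrez 17210, chr3:95656944-95663179) stood at 80.8, 96.6, 89.8 and 99.8 TPM in hSKP2-KI and at 68.0, 90.5, 78.6 and 73.8 TPM in WT replicates 1 to 4. WT replicate 2 lay inside the hSKP2-KI range. The means were 91.7 ± 8.38 and 77.7 ± 9.55 TPM (SD, n = 4 each), and the difference of 0.24 (SE 0.10) was at the median of all genes, with a limma adjusted p of 0.0825. After scaling the difference was -0.03 (adjusted p = 0.857 by limma). Without WT replicate 2 the deposited difference was 0.31 and passed, with a limma adjusted p of 0.0303.

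The make-up of the transcripts of the 3 anti-apoptotic members differed with genotype. Bcl2, Bcl2l1 and Mcl1 together summed to 130 ± 10.6 TPM in hSKP2-KI and 102 ± 9.81 TPM in WT (SD, n = 4 each). Bcl2 held 6.07%, 5.26%, 5.82% and 6.63% of that sum in hSKP2-KI replicates 1 to 4 and 3.15%, 3.53%, 3.31% and 3.73% in WT. Bcl2's share was higher in every hSKP2-KI sample than in any WT sample, at 5.94% ± 0.569 against 3.43% ± 0.255. Mcl1 made up most of this sum in both genotypes, at 70.3% ± 1.48 in hSKP2-KI and 76.4% ± 2.89 in WT, without overlap. Bcl2l1 held 23.7% ± 1.43 and 20.2% ± 3.03, and there WT replicate 1, at 24.6%, lay above 3 of the 4 hSKP2-KI samples. Such shares do not depend on how samples are scaled. The sum leaves out Bcl2l2, an anti-apoptotic gene outside the members, at means of 48.7 TPM in hSKP2-KI and 48.5 TPM in WT. Its values in replicates 1 to 4 were 45.2, 48.0, 50.4 and 51.4 TPM in hSKP2-KI. In WT they were 42.3, 52.6, 51.6 and 47.2 TPM. Once Bcl2l2 is added to the sum of each sample, the Mcl1 shares of the genotypes overlap. The separation of the Mcl1 shares therefore holds only for the sum of these 3 members.

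The effectors Bax and Bak1 were less different than Bcl2. Bax (Entrez 12028, chr7:45461695-45466903) stood at 41.3, 53.1, 39.8 and 35.5 TPM in hSKP2-KI and at 51.5, 36.0, 30.2 and 43.5 TPM in WT replicates 1 to 4. The groups were interleaved, with the spread within each genotype larger than the gap between the means of 42.4 ± 7.55 and 40.3 ± 9.25 TPM (SD, n = 4 each). The difference was 0.09 (SE 0.16, limma adjusted p = 0.681) as deposited and -0.18 (SE 0.19, limma adjusted p = 0.585) after scaling, so its sign turned with the scaling. Bak1, the effector that resides on the membrane (Entrez 12018, chr17:27019812-27028627), stood at 14.7, 18.6, 15.5 and 15.4 TPM in hSKP2-KI. The WT values were 13.4, 13.2, 12.1 and 12.3 TPM, all below the hSKP2-KI values. Its means were 16.0 ± 1.72 and 12.8 ± 0.636 TPM (SD, n = 4 each), a difference of 0.31 (SE 0.09) with a limma adjusted p of 0.0306. After scaling the groups overlapped and the difference was 0.05 (SE 0.09, limma adjusted p = 0.759). The deposited call for Bak1 held without hSKP2-KI replicate 1, WT replicate 1 or WT replicate 2, and was lost without each of hSKP2-KI replicates 2, 3 and 4 and WT replicates 3 and 4, with a limma adjusted p of up to 0.0834.

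Among the 5 BH3-only genes 4 were tested and none of those was called (0 of 4 by limma as deposited and after scaling). At an unadjusted p under 0.05 the count was 1 as deposited, which was Bad, and 0 after scaling. Bid, which caspases cleave to link death receptors to mitochondria (Entrez 12122, chr6:120893119-120917062), stood at 3.14, 4.53, 1.98 and 3.97 TPM in hSKP2-KI and 3.23, 3.04, 2.58 and 4.20 TPM in WT. Its hSKP2-KI samples included both the lowest and the highest value, and the difference was 0.02 (SE 0.19, limma adjusted p = 0.929). Bad, which phosphorylation by survival kinases holds inactive (Entrez 12015, chr19:6941861-6951905), stood at 23.9, 26.4, 25.4 and 25.8 TPM in hSKP2-KI and 20.1, 21.8, 19.0 and 24.4 TPM in WT. Only hSKP2-KI replicate 1 lay below a WT value, that of replicate 4. The means of Bad were 25.4 ± 1.08 and 21.4 ± 2.33 TPM (SD, n = 4 each), a difference of 0.24 (SE 0.09, limma adjusted p = 0.0577) that was -0.02 after scaling and passed as deposited without WT replicate 4, at 0.31 and a limma adjusted p of 0.0350.

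Bcl2l11, whose protein BIM binds every anti-apoptotic member, was low in all mice. It (Entrez 12125, chr2:128126038-128162547) stood at 2.93, 3.34, 2.94 and 3.75 TPM in hSKP2-KI and 2.53, 3.04, 2.67 and 3.08 TPM in WT. The difference was 0.15 (SE 0.12, limma adjusted p = 0.318) and -0.06 after scaling. Bbc3, a transcriptional target of p53 (Entrez 170770, chr7:16308398-16318334), stood at 4.73, 6.50, 3.90 and 3.17 TPM in hSKP2-KI and 6.62, 4.63, 3.51 and 5.28 TPM in WT. It was the tested member whose mean was lower in hSKP2-KI, at 4.58 ± 1.43 against 5.01 ± 1.30 TPM (SD, n = 4 each), with overlapping groups. The difference was -0.12 (SE 0.20, limma adjusted p = 0.644), and -0.34 (SE 0.21, limma adjusted p = 0.344) after scaling.

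Pmaip1, another p53 target whose protein NOXA binds Mcl1 in preference to Bcl2, fell below the filter on low values. It (Entrez 58801, chr18:66458604-66465558) stood at 0.538, 1.10, 0.768 and 1.23 TPM in hSKP2-KI and 0.223, 0.343, 0.259 and 0.195 TPM in WT replicates 1 to 4. Every hSKP2-KI value was above every WT value, with means of 0.909 ± 0.315 and 0.255 ± 0.0642 TPM (SD, n = 4 each), a 3.57-fold ratio that was larger than that of Bcl2. The difference in mean log2(TPM + 1) was 0.59, with p = 0.0286 in a two-sided exact permutation test, the smallest p that 70 assignments of 4 against 4 can give. After scaling the groups stayed apart, with a difference of 0.50 and the same exact p of 0.0286. These levels lie near 1 TPM, and without read counts the precision of such low values is unknown.

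**Figure D2:**
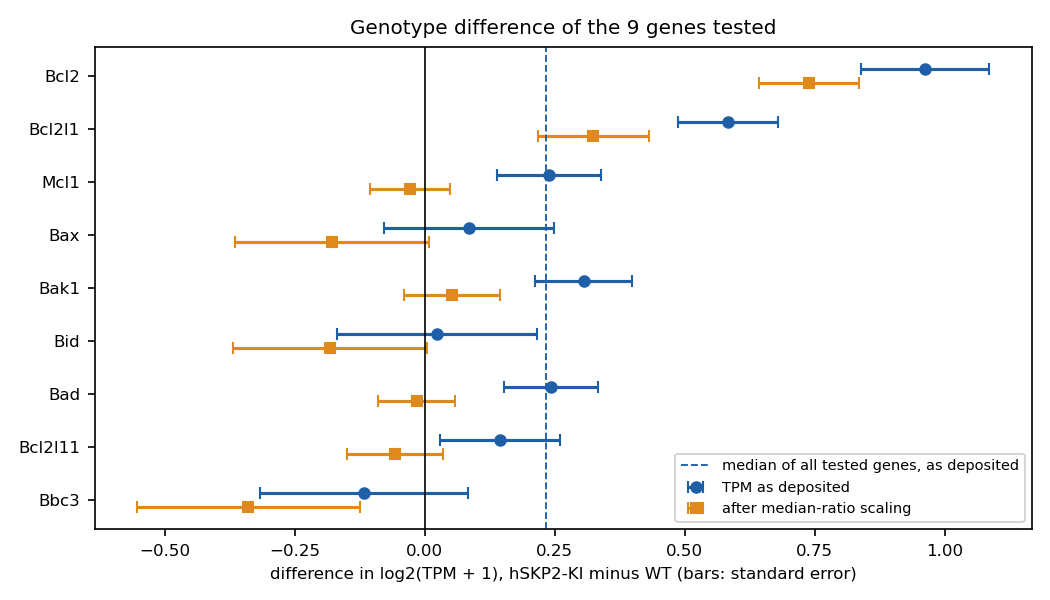
Difference in mean log2(TPM + 1), hSKP2-KI minus WT, of the 9 tested genes with its standard error, for the TPM as deposited (blue circles) and after median-ratio scaling (orange squares); the dashed line is the median of all tested genes as deposited, 0.23. Bcl2 stays well to the right of 0 on both scales, Bcl2l1 lies at 0.32 after scaling, and the other 7 lie between -0.34 and 0.05 after scaling.

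Ratios of 2 members within a sample do not change with the scaling of that sample, and 6 of them were compared with exact permutation tests and Benjamini-Hochberg adjustment over the 6. The Bcl2 to Bax ratio, often used to describe the balance of survival and death signals, was on the log2 scale -2.52, -2.89, -2.45 and -1.92 in hSKP2-KI replicates 1 to 4 and -4.12, -3.14, -3.19 and -3.60 in WT. The groups did not overlap, and Bcl2 amounted to 18.4% of the Bax TPM in hSKP2-KI and 8.77% in WT, as geometric means. The mean log2 ratios were -2.45 ± 0.40 and -3.51 ± 0.45 (SD, n = 4 each), a difference of 1.07 or 2.09-fold, with an exact p of 0.0286, the smallest that 70 assignments allow, and an adjusted p of 0.0343. The Bcl2l1 to Bax ratio was 1.43-fold higher in hSKP2-KI, a log2 difference of 0.52, again with all 4 hSKP2-KI samples above all WT samples. Its nearest samples were close, at -0.70 in hSKP2-KI replicate 2 and -0.73 in WT replicate 3. The Mcl1 to Bax ratio differed by 0.15, with overlapping groups and an exact p of 0.6.

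Bcl2 was also higher relative to Bcl2l1, Mcl1 and Bcl2l11. It was not set against Bak1, Bid, Bad, Bbc3 or Pmaip1. Against Bcl2l1 its ratio was 1.46-fold higher in hSKP2-KI, a log2 difference of 0.55. Against Mcl1 it was 1.88-fold higher, a log2 difference of 0.91, with WT samples from -4.57 to -4.36 and hSKP2-KI samples from -3.75 to -3.41. Against Bcl2l11, whose protein BIM is held by BCL2, it was 1.95-fold higher, at 123% of the Bcl2l11 TPM in WT and 239% in hSKP2-KI as geometric means. For Bcl2l1 to Bax, Bcl2 to Bcl2l1, Bcl2 to Mcl1 and Bcl2 to Bcl2l11 the exact p was 0.0286 and the adjusted p 0.0343, and 4 of 4 hSKP2-KI samples lay above all WT samples. The 5 ratios that separated share members, so they are not independent of each other. Those with Bcl2 on top largely restate its own difference, the largest of the tested members. Their adjusted p is the same because each had the smallest possible exact p. How many of all tested genes would separate in such ratios was not counted.

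**Figure D3:**
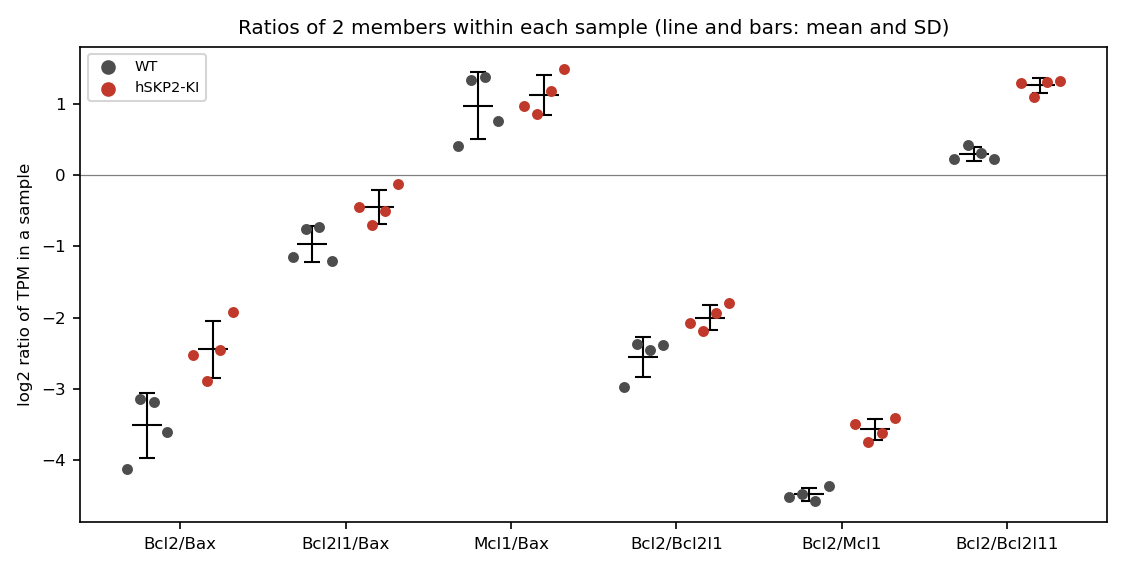
log2 ratio of the TPM of 2 genes within each sample, for 6 ratios in WT (grey) and hSKP2-KI (red) mice, with the mean and SD of each group of 4. The groups are apart for every ratio except Mcl1/Bax, and the widest gap between group means is that of Bcl2/Bax, 1.07.

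The order of the levels, compared per length as TPM, was led by Mcl1 and then Bax in both genotypes. In hSKP2-KI it went on with Bcl2l1, Bad, Bak1, Bcl2, Bbc3, Bid, Bcl2l11 and Pmaip1. Only the neighbours Bbc3 and Bid, and Bid and Bcl2l11, overlapped in their ranges over the 4 hSKP2-KI mice. In WT the order went on with Bad, Bcl2l1, Bak1, Bbc3, Bcl2, Bid, Bcl2l11 and Pmaip1. There the ranges of Bad and Bcl2l1 overlapped, as did those of Bbc3 and Bcl2, Bcl2 and Bid, and Bid and Bcl2l11. Bcl2 thus lay among the low BH3-only transcripts in WT and above them, with no overlap with its neighbours, in hSKP2-KI. Bcl2l1 and Bad could not be ordered in WT and were apart in hSKP2-KI.

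Markers of other cell types moved with genotype in the same samples. In bulk tissue, fewer cells of a type and less RNA per cell cannot be told apart. All 6 fibroblast markers were called higher in hSKP2-KI as deposited, and they summed to 759 to 1333 TPM there and 420 to 605 TPM in WT, with 2 of 6 called after scaling. All 6 smooth muscle markers were called (3 after scaling), summing to 3011 to 4624 against 2032 to 2564 TPM. Of 5 endothelial markers 4 were called (1 after scaling), summing to 32.0 to 56.7 TPM, above the highest WT sum of 28.5 TPM. Of 6 macrophage markers 5 were called (0 after scaling), summing to 193 to 410 against 84.4 to 178 TPM. No marker in these 4 lists was at 0 in any sample. The luminal list had 2 of 5 and the basal list 2 of 4 markers called (0 after scaling in both), with sums of 2073 to 2236 against 1730 to 1915 TPM and 292 to 424 against 196 to 305 TPM. The T cell list had 2 of its 3 tested markers called as deposited and 0 after scaling, summing to 5.92 to 7.95 against 2.62 to 5.15 TPM. The leukocyte marker Ptprc, at 3.72 to 7.76 against 1.59 to 5.29 TPM, was not called on either scale. No B cell marker (3.03 to 14.9 against 1.76 to 21.9 TPM) or plasma cell marker (73.7 to 102 against 60.2 to 90.2 TPM) was called, and the highest B cell sum was in WT replicate 3. At an unadjusted p under 0.05 after scaling the counts were 6 of 6 fibroblast, 6 of 6 smooth muscle, 3 of 5 endothelial, 4 of 6 macrophage, 0 of 5 luminal, 1 of 4 basal and 2 of 3 T cell markers, and for B cell and plasma cell markers 0 on both scales. Of 5 proliferation markers 2 were tested and 0 called on either scale (0 also at an unadjusted p under 0.05), at 3.65 to 6.33 against 4.18 to 6.68 TPM. Of the 4 neutrophil markers 0 passed the filter and 3 were at 0 in some sample.

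In log2(TPM + 1), Bcl2 differed by about as much as the fibroblast and macrophage lists and by more than the endothelial and luminal lists. Its difference between genotypes in log2(TPM + 1) minus that of the list mean was -0.03 for fibroblast markers, whose own mean differed by 0.99, and -0.01 for macrophage markers, which differed by 0.97. It was 0.19 for smooth muscle, 0.34 for endothelial and 0.49 for basal markers. Against the luminal list, which differed by 0.27, it was 0.70, and Bcl2 relative to that list was higher in every hSKP2-KI sample than in any WT sample. Relative to the fibroblast list 2 of 4 hSKP2-KI samples lay above all WT samples, and relative to the endothelial list all 4 did. Within WT the 4 mice came in the same order by Bcl2 as by the fibroblast and the endothelial mean, with replicate 1 lowest, then 3, 4 and 2, which is also the order of their median-ratio size factors (0.827, 0.894, 0.944 and 0.985). After scaling the order was kept for Bcl2 and the endothelial mean, while the fibroblast means of replicates 3 and 4 changed places, at 5.46 and 5.45. Within hSKP2-KI the highest Bcl2 value and the highest endothelial mean were both in replicate 4, while the highest fibroblast and macrophage means were in replicate 2, which had the lowest Bcl2. This scale understates the change of a low gene such as Bcl2. Without the added 1 the Bcl2 log2 difference was 1.15, and the lists were not recomputed that way. The part of these cell types in the Bcl2 difference was not tested.

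**Figure D4:**
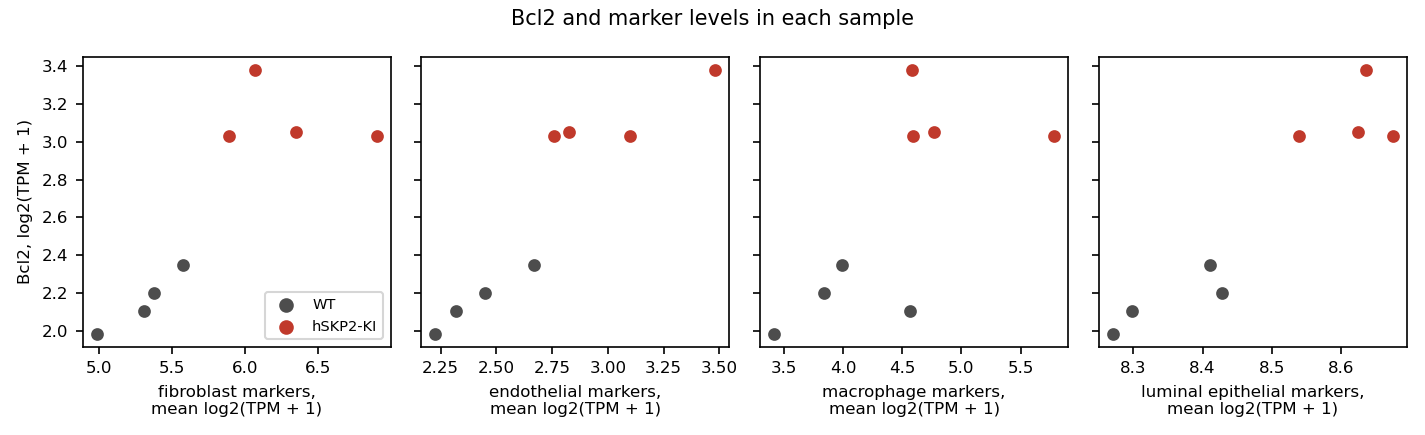
Bcl2 level against the mean level of 4 marker lists in each sample, all in log2(TPM + 1), with WT in grey and hSKP2-KI in red. All hSKP2-KI points are above and to the right of the WT points for fibroblast, endothelial and luminal markers, and for macrophage markers WT replicate 3 reaches close to the lowest hSKP2-KI points, with the luminal means spanning the narrowest range.

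The genes whose profile over the 8 samples was nearest to that of Bcl2 were Ppp1r3c, Cst3, Plac9b, 2200002D01Rik and Hacd4. The root mean square difference of their centred log2(TPM + 1) values from those of Bcl2 was 0.0775, 0.0789, 0.0926, 0.101 and 0.102, beside a median of 0.406 over tested genes. Cst3, the secreted protease inhibitor cystatin C, stood at 823 to 1004 TPM in hSKP2-KI and 431 to 504 TPM in WT. Ppp1r3c, a glycogen-targeting subunit of protein phosphatase 1, stood at 15.2 to 19.5 against 6.91 to 9.32 TPM. In both, hSKP2-KI replicate 4 was the highest of all samples, as for Bcl2. Reads of Plac9b may be shared with its near-identical copy Plac9a. These 5 were picked for their likeness to Bcl2, and their genotype differences follow from that choice.

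The wider BCL2 family was described by a fixed list of 15 other genes. Of these 10 were tested, 3 were called higher and 0 lower as deposited, close to the 32.7% of all tested genes called higher, and 0 higher and 1 lower after scaling, where all tested genes had 6.91% and 4.25%, with a median difference of 0.19 (-0.06 after scaling). Bok, a BAX-like effector, stood at 19.0, 20.2, 12.4 and 15.0 TPM in hSKP2-KI and 10.7, 9.04, 9.04 and 8.85 TPM in WT. All 4 hSKP2-KI values were above the WT values, and the difference of 0.74 (SE 0.14, limma adjusted p = 0.00498) was called without any 1 mouse but was 0.49 with a limma adjusted p of 0.0742 after scaling. Bcl2a1b, an anti-apoptotic gene of hematopoietic cells, differed by 0.96 (limma adjusted p = 0.0327), with overlapping groups, and was called in 4 of 8 fits with 1 mouse left out (up to 0.0870, without WT replicate 1). It has near-identical copies that can share its reads. Bnip3l, a mitophagy receptor, differed by 0.26 (limma adjusted p = 0.0271) and by less than 0.01 after scaling, and was called in 3 of 8 such fits (up to 0.0698, without hSKP2-KI replicate 2). Bcl2l2 (BCL-W), the most abundant anti-apoptotic gene after Mcl1 among those named here, differed by 0.01 as deposited and by -0.25 after scaling, where it was called lower (limma adjusted p = 0.0392). That call was lost under quantile normalization (0.0961) and without the 20 most abundant genes (0.113). Bnip3 was called on neither scale, at -0.0019 as deposited and -0.27 (limma adjusted p = 0.0641) after scaling.

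The machinery on either side of the BCL2 family was described by fixed lists. The counts below stand beside 32.7% of all tested genes called higher and 1.23% lower as deposited, and 6.91% and 4.25% after scaling, and nothing is read from them about a list as a whole. Of 12 apoptosome and caspase genes 3 (25%) were called higher, among them Casp2 (0.56) and the mitochondrial flavoprotein Aifm1 (0.37), and 0 lower, and 0 were called after scaling. Aifm1 was called without any 1 mouse, and Casp2 in 4 of 8 such fits (limma adjusted p up to 0.0757, without WT replicate 1). Cytochrome c, Cycs, and Parp1, a caspase substrate, were not called. Of 6 tested inhibitor of apoptosis genes and their antagonists 2 were called higher, Diablo (0.30) and Birc3 (0.29), and 0 after scaling, and these calls held in 4 and 2 of 8 fits with 1 mouse left out (limma adjusted p up to 0.0714, without hSKP2-KI replicate 2, and 0.0925, without hSKP2-KI replicate 4). Of 6 partners in the outer membrane and in fission 4 (66.7%, beside 32.7% of all tested genes) were called higher (Vdac1 0.40, Vdac3 0.39, Mff 0.31 and Vdac2 0.28) and 0 after scaling. In these 3 lists 0 genes had an unadjusted p under 0.05 after scaling. Of these the channel gene Vdac2, which binds BAK, lost its call without hSKP2-KI replicate 4 (limma adjusted p = 0.0529).

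Of 9 tested death receptor genes 2 (22.2%, beside 32.7% of all tested genes) were called higher as deposited. The receptor Fas stood at 14.5, 16.9, 18.1 and 18.1 TPM in hSKP2-KI and 10.6, 12.2, 10.1 and 11.9 TPM in WT, without overlap. Its difference was 0.55 (SE 0.10, limma adjusted p = 0.00414), and 0.30 (limma adjusted p = 0.0403) after scaling, where it was the call of this list. The kinase Ripk1 differed by 0.42 (limma adjusted p = 0.0178) as deposited and 0.17 after scaling.

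Of 15 p53 pathway genes, the group that includes regulators upstream of Bax, Bbc3 and Pmaip1, 2 were called higher as deposited, Trp53 itself (0.47, limma adjusted p = 0.0424) and its inhibitor Mdm4 (0.39, limma adjusted p = 0.0367), and 0 lower, where 32.7% of all tested genes were called higher. These calls held in 1 and 4 of 8 fits with 1 mouse left out (up to 0.0950, without hSKP2-KI replicate 2, and 0.0971, without hSKP2-KI replicate 4). After scaling 0 were called higher (0 also at an unadjusted p under 0.05) and 3 lower, the desmosomal target Perp (-0.50, limma adjusted p = 0.0109), Sesn2 (-0.46, limma adjusted p = 0.0461) and Gadd45a (-0.34, limma adjusted p = 0.0410), where 4.25% of all tested genes were called lower. Perp stood at 260 to 308 TPM in hSKP2-KI and 309 to 365 TPM in WT.

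Of 14 genes that regulate members' expression or stability 5 were called higher and 1 lower as deposited, and 1 each after scaling, beside 32.7% and 1.23% of all tested genes as deposited and 6.91% and 4.25% after scaling. Bag3, a co-chaperone that binds BCL2, stood at 38.9, 42.8, 43.4 and 48.5 TPM in hSKP2-KI and 25.6, 32.5, 27.7 and 28.2 TPM in WT, without overlap on either scale. Its difference was 0.59 (limma adjusted p = 0.00245), and 0.33 (limma adjusted p = 0.0178) after scaling. The kinase gene Pim3, whose product phosphorylates BAD, was lower on both scales, at -0.26 (limma adjusted p = 0.0408) and -0.53 (limma adjusted p = 0.00746). Its deposited call held in 3 of 8 fits with 1 mouse left out (up to 0.0985, without hSKP2-KI replicate 4). Bag1 (0.41), Foxo1 (0.45) and Ddit3 (0.46), the last 2 being known activators of Bcl2l11, were called as deposited and not after scaling, and the call of Ddit3 held in 2 of 8 such fits (limma adjusted p up to 0.0890, without hSKP2-KI replicate 2).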

How the data were processed

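Poly-A RNA libraries from 8 ventral prostates (4 hSKP2-KI and 4 WT mice, 12 months old) were made, sequenced, trimmed and mapped with CLC software by or for the authors, and deposited as 1 table of TPM for 36333 genes. The submitters' processing notes name the builds GRCm38 and mm10; the version, annotation and counting rules are not given in the sources used here. TPM sums to the same total in every sample and keeps no depth, so no counting interval could be given.

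From the deposited TPM, genes reaching 1 TPM in 4 or more of the 8 samples were tested with limma 3.58.1 (R 4.3.3) on log2(TPM + 1), with a mean-variance trend and no covariate, two-sided, with Benjamini-Hochberg adjustment over 13080 genes at 0.05. Median-ratio size factors were computed on tested genes. Ratios and Pmaip1 were compared with two-sided exact permutation tests (scipy 1.17.1). The step was tested on simulated data: of 200 genes changed 2-fold among 13080, 89.5% were called, and 9.14% of calls were unchanged genes. Gene coordinates and promoters are from RefSeq, both GRCm38, and 9 of 10 members matched a promoter.

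The members, gene lists and markers were chosen with earlier results of these data known. Members were all described. From each other list the genes named were up to 4 with the largest absolute difference among those called and up to 2 of the most abundant not called, and the 5 genes nearest to Bcl2; some are not reported here. Bcl2l2 after scaling, Sesn2, Perp after scaling, Gadd45a and Pim3 were named after their values were seen. The alternatives tried were another pseudocount (0.1), no filter, mean TPM of at least 5, median-ratio or quantile scaling, TPM without the 20 most abundant genes, sample weights, a robust fit, a replicate block and each mouse left out. Each sample is 1 mouse, and whether litters or processing days were shared is not given.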

Additional observations from a re-analysis of the deposited data

Results flagged for a closer look

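Samples far from the other 3 of their genotype were looked for in 100 groups of 4, and 9 were found, where chance gives about 1 in 20 groups. For the members the one such TPM value was Bcl2 in hSKP2-KI replicate 4, at 9.40 TPM against 7.17 to 7.28 TPM in the others; without this mouse the Bcl2 call remained. In the ratios, WT replicate 1 was low for Bcl2 to Bcl2l1, at -2.97 on the log2 scale against -2.46 to -2.38, and hSKP2-KI replicate 2 was low for Bcl2 to Bcl2l11, at 1.10 against 1.30 to 1.32. Among the other named genes, Bok was high in WT replicate 1 (10.7 TPM), Cycs was low in WT replicate 3 (36.6 TPM), and Foxo1 was high in hSKP2-KI replicate 3 (17.0 TPM). Gadd45a was high in hSKP2-KI replicate 2 (62.4 TPM) and in WT replicate 2 (59.5 TPM), and Hacd4 was low in WT replicate 1 (1.56 TPM).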

How the results depend on the processing

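The scaling between samples changed most. Genes called numbered 4433 as deposited, 1460 after median-ratio scaling, 1326 after quantile normalization, 1321 without the 20 most abundant genes and 2993 to 4677 with 1 mouse left out. Median-ratio scaling gave 789 to 1291 with 1 mouse left out and 1425 with the replicate block, both chosen after seeing the data. Members called higher numbered 3 as deposited and 1 under median-ratio scaling, quantile normalization and median-ratio scaling with the block. With 1 mouse left out they numbered 2 to 4 (1 to 2 with median-ratio scaling). Without the filter on low values 4 members were called higher by limma, and the additional one was Pmaip1. Bcl2 was called under every setting run, and 0 members were called lower. For the single genes named, 574 values under the alternatives kept the direction and the side of the threshold, 128 kept the direction and lost the call, and 13 gained one.

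Signs turned under median-ratio scaling for Mcl1 (-0.027), Bax (-0.18), Bid (-0.18), Bad (-0.016), Bcl2l11 (-0.057), Bnip3l (-0.00028), Bcl2l2 (-0.25), Cycs (-0.0998), Parp1 (-0.096) and Ccng1 (-0.085). They turned under quantile normalization for Bax (-0.13), Bid (-0.30), Bcl2l11 (-0.19), Bcl2l2 (-0.22), Cycs (-0.063), Parp1 (-0.071) and Ccng1 (-0.034). Without the 20 most abundant genes they turned for Mcl1 (-0.0062), Bax (-0.16), Bid (-0.19), Bcl2l11 (-0.047), Bcl2l2 (-0.23), Cycs (-0.080), Parp1 (-0.076) and Ccng1 (-0.064), and with sample weights for Bid (-0.084). With 1 mouse left out the difference ranged from -0.041 to 0.21 for Bax, -0.27 to 0.011 for Bbc3, -0.051 to 0.051 for Bcl2l2, -0.10 to 0.20 for Bid, -0.097 to 0.072 for Bnip3 and -0.035 to 0.29 for the Mcl1 to Bax ratio. The cause was not tested, and none of these was called as deposited except Bnip3l.

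With the replicate number as a block 5 members were called, Mcl1 (limma adjusted p = 0.0382) and Bad (0.0458) in addition, but same-numbered samples did not deviate together (r = 0.22, -0.11, 0.17 and -0.01), and not every sample correlated best with its own number. Sign flips of same-numbered pairs gave the separated ratios a p of 0.125, the smallest that 4 pairs allow in an exact permutation test. The unknown depth limits the low members most, Pmaip1 above all.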

Other observations

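The effector Bax and the BH3-only gene Bbc3, both known p53 targets, ranked the mice alike within each genotype, a pattern seen after the values were known and not tested. In WT both were lowest in replicate 3, at 30.2 and 3.51 TPM, then in replicates 2 and 4, and highest in replicate 1, at 51.5 and 6.62 TPM. In hSKP2-KI both were lowest in replicate 4, at 35.5 and 3.17 TPM, then in replicates 3 and 1, and highest in replicate 2, at 53.1 and 6.50 TPM. Pmaip1, another p53 target among the members, did not share this order, with its highest value in hSKP2-KI replicate 4 (1.23 TPM). None of the listed p53 pathway genes had this order in both genotypes, though Phlda3 and Aen had it in WT and Btg2 in hSKP2-KI. Mdm2 was highest in hSKP2-KI replicate 4 (18.2 TPM) and lowest in WT replicate 1 (12.5 TPM). How many of all genes share the order was not counted.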
